A study of Mus musculus with 234 samples.

Results

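The BAG family and the features of a BAG3 transgene were followed through single cardiomyocytes (CMs) of 5 mice. The members were taken by name from the counts table: the mouse genes Bag1, Bag2, Bag3, Bag4, Bag5 and Bag6, and hBAG and BAG-eGFP, which hold the reads counted on the added transgene sequences. These are 8 of 55538 features, and all 8 had counts. The transgene encodes human BAG3 with the P209L change fused to eGFP. It is driven by the ubiquitous CAG promoter behind a stop cassette flanked by loxP sites, sits in the Rosa26 locus, and goes back to a single embryonic stem cell clone. PGK-Cre, which acts in the whole body, removed the stop. The homozygous mice M25 and M116 (strain PGKcre:BAG3P209L_homo in the labels) carried the transgene on both alleles, with the stop deleted on one or both of them. The heterozygous mouse, M72, carried it on one allele. The control mice M26 and M73 are given in the labels as wt, genotype control and strain C57BL/6, while the methods describe the controls of the study at large as siblings that were wild-type, carried PGK-Cre or carried the undeleted construct. The methods put the transgenic lines on a mixed genetic background that includes C57BL/6. The homozygous and control hearts were taken at 2 weeks of age, and the labels name no treatment. The age of M72 is not given in the sources used here.

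CMs were released by Langendorff perfusion, picked by hand, classed as bright or dim by their eGFP fluorescence under a macroscope where the mouse was transgenic, and sequenced one by one with SMART-seq2. M26 gave 24 and M73 9 control CMs; M25 gave 21 bright and 18 dim, M116 59 bright and 50 dim, and M72 27 bright and 26 dim CMs. A cell held a median of 711527 counts (range 487 to 1392253), and 15 of the 234 cells showed fewer than 1000 genes. Counts were added up within each mouse and brightness class, so that animals and not cells served as replicates. This gave 8 sums of 4096609 to 40508124 counts. The cells of mice M25 and M26 shared one plate. Mice M73 and M72 shared a plate whose name in the labels has another prefix, under which the cells of M116 lay on 2 further plates. All 6 CM markers (Myh6, Tnnt2, Actc1, Ttn, Ryr2, Tnni3) had counts in all 8 sums, with a summed level of 64413 to 84867 CPM, which are counts scaled by the total of a sum or a cell. Of the other cell types, 5 fibroblast markers summed to between 22.7 and 449 CPM in 7 sums and to 2174 CPM in the bright CMs of M25. The endothelial list summed to 48.6 to 145 CPM, the immune list to 0.264 to 44.8 CPM with Ptprc at 0 in 6 of the 8 sums, and the smooth muscle and pericyte list to 27.5 to 134 CPM with Myh11 at 0 in 7 of them. The immune list was highest in dim CMs of M25 and M116 (44.8 and 41.0 CPM), against 0.264 and 1.97 CPM in their bright CMs. In controls M26 and M73 it was at 1.69 and 1.22 CPM. The endothelial list was at 133 and 132 CPM in these dim CMs, 48.6 and 68.4 CPM in bright CMs, and 60.9 and 128 CPM in controls. The part of these cell types in the values of the BAG members was not tested.

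Most BAG proteins share the BAG domain, which binds the ATPase domain of Hsp70 chaperones and speeds their release of nucleotide and client. These proteins differ in the partners that their other domains bring to Hsp70. BAG1 links Hsp70 to the proteasome, and BAG2 inhibits the ubiquitin ligase CHIP (Stub1). BAG3 joins Hsp70, small heat shock proteins and CHIP in chaperone-assisted selective autophagy, which clears damaged filamin at the Z-disc of muscle. BAG4 holds the TNF receptor TNFR1 (Tnfrsf1a) silent, BAG5 acts as an exchange factor of Hsp70, and BAG6 handles tail-anchored and mislocalized membrane proteins. Proline 209 of human BAG3 lies in the second of a pair of Ile-Pro-Val motifs to which small heat shock proteins such as HSPB8 bind, and its exchange for leucine causes myopathy and cardiomyopathy in people.

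The mouse Bag3 message has the same pair of motifs. The codons around each are shown because the second motif is the mouse counterpart of the site that the transgene changes, which the endogenous gene keeps, and the first is the motif that the change leaves as it is. They were read from the coding sequence of transcript Bag3-201 in GENCODE M21 (build GRCm38), which has 577 codons in a transcript of 2562 bases, with 7 codons on either side and the 3 codons of the motif in capitals. The first line spans bases 514 to 564 of the transcript, with the proline at codon 99, and the second bases 862 to 912, with the proline at codon 215.
Bag3, first motif: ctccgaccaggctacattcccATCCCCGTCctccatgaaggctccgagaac
Bag3, second motif: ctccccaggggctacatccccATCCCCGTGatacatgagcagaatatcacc

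The first question is how much transgene mRNA the CMs of each class held. Control CMs held 8 hBAG counts in M26 (0.408 CPM) and 2 in M73 (0.488 CPM), and a single BAG-eGFP count among both. Beside the Bag3 counts of the same controls this is 0.00166 hBAG counts per Bag3 count in M26 and 0.00241 in M73. It limits the share of mouse Bag3 reads that the counting could have placed on the human feature. The bright homozygous CMs held 294 CPM of hBAG in M25 and 233 CPM in M116. For BAG-eGFP, bright homozygous CMs held 220 and 224 CPM, so that these mice lay within 2.48 CPM (SD, n = 2) of a mean of 222 CPM. The bright classes of both mice lay far above both controls for both features.

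The dim homozygous CMs of the same hearts differed between the mice. In M25 dim CMs held 10.7 CPM of hBAG and 7.45 CPM of BAG-eGFP, and in M116 they held 99.6 and 97.7 CPM. All of these lie above both controls and below both bright classes, but the dim CMs of M116 had 9.29 times the hBAG level of those of M25. Counted cell by cell over cells with at least 1000 genes, the sum of both features was higher than in the highest control cell (4.42 CPM) in 19 of 20 bright CMs of M25, in 56 of 56 bright CMs of M116, in 43 of 48 dim CMs of M116 and in 8 of 18 dim CMs of M25. In control CMs, 0 of 20 and 0 of 8 cells were above that value by its definition. The median dim CM of M25 held 2.28 CPM of both features together, within the range of control cells, whereas the median dim CM of M116 held 165 CPM. The median bright CM held 390 CPM in M25 and 438 CPM in M116.

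**Figure D1:**
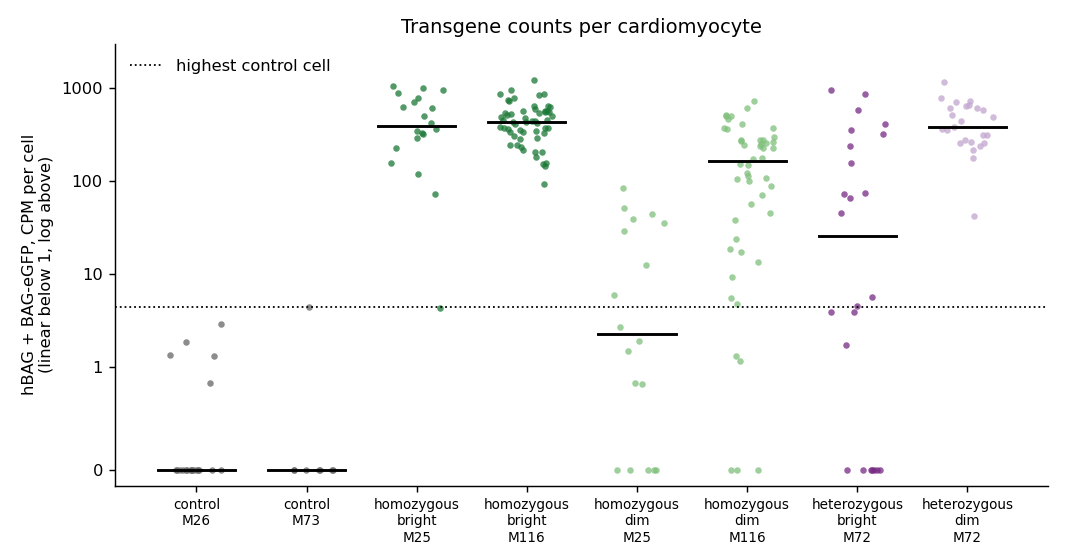
Each point is 1 cardiomyocyte with at least 1000 genes; the vertical axis gives the summed level of hBAG and BAG-eGFP in CPM (linear below 1, log above), the black bar the median of the cells, and the dotted line the highest control cell at 4.42 CPM. Bright cells of both homozygous mice form 1 dense band around 390 and 438 CPM, dim cells of M25 sit mostly at the level of controls, and in the heterozygous mouse the cells labelled bright spread down to 0 while those labelled dim form the dense band.

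In the heterozygous mouse the order was turned around. The CMs labelled bright held 105 CPM of hBAG and 62.1 CPM of BAG-eGFP, and the CMs labelled dim held 251 and 208 CPM. The fluorescence label thus goes against the transgene mRNA in M72, which is why its classes are called by their labels throughout. Among the CMs labelled bright, 14 of 24 cells were above the highest control cell, 7 had no count of either feature and the median was 25.6 CPM. Among those labelled dim, 25 of 25 cells were above it and the median was 381 CPM. The hBAG level of the CMs labelled dim lay between those of the bright homozygous CMs of mice M116 and M25. This was not tested, because the heterozygous cells come from 1 mouse. On the log2 scale of normalized values the bright to dim ratio of hBAG was 4.76 in M25, 1.20 in M116 and -1.14 in M72, and that of BAG-eGFP was 4.87, 1.17 and -1.62.

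Both features of the transgene followed each other from cell to cell. Spearman's rho between hBAG and BAG-eGFP within a sum lay between 0.479 and 0.849 over the 6 transgenic sums (18 to 56 cells each, median 0.67), and was above 0 in all 6; the values of a cell share its library and depth. For hBAG and Bag3 the same measure lay between -0.49 and 0.26 with a median of -0.05, above 0 in 2 of 6 sums, so that cells rich in transgene were neither regularly rich nor regularly poor in endogenous Bag3. The medians for hBAG with Bag1, Bag2, Bag4, Bag5 and Bag6 lay between -0.06 and 0.07.

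**Figure D2:**
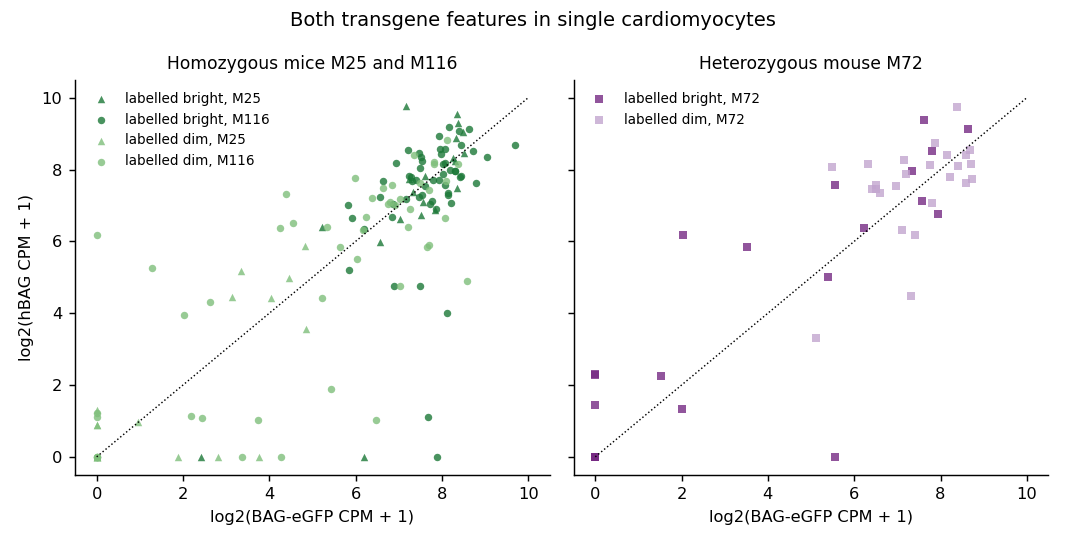
Each point is 1 transgenic cardiomyocyte with at least 1000 genes; the axes give log2(CPM + 1) of BAG-eGFP (horizontal) and hBAG (vertical), and the dotted line marks equal values. Homozygous cells (left; triangles M25, circles M116) rise along the line from dim to bright, and in the heterozygous M72 (right) most cells labelled dim lie at its upper end.

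The number of hBAG counts per BAG-eGFP count asks whether the features of the transgene keep 1 ratio over classes. In M25 it was 1.33 in bright CMs (95% exact binomial interval 1.28 to 1.39) and 1.44 in dim CMs (1.15 to 1.80), and in M116 it was 1.04 (1.01 to 1.07) and 1.02 (0.972 to 1.07). Bright and dim CMs thus had means of 1.19 ± 0.208 and 1.23 ± 0.296 (SD, n = 2 mice), which differed by less than the spread between the mice (paired two-sided exact permutation test, p = 1.0; the smallest p that 2 pairs allow is 0.5). Within M116 the ratio differed by plate. On the first of its plates it was 1.29 in bright and 1.14 in dim CMs, and on the second 0.843 in bright and 0.851 in dim CMs, with intervals that do not meet between the plates. On the first plate the intervals of bright (1.23 to 1.34) and dim CMs (1.08 to 1.22) do not meet either, whereas on the second they overlap. In M72, on 1 plate, it was 1.69 (1.55 to 1.84) in CMs labelled bright and 1.21 (1.15 to 1.27) in those labelled dim. The intervals cover counting error only, and in the CMs labelled bright 31.1% of the hBAG counts came from 1 cell.

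Set against the endogenous gene, hBAG had 1.503 counts per Bag3 count in bright CMs of M25 and 1.19 in those of M116. In dim CMs the number was 0.0481 in M25 and 0.640 in M116. Over single cells with a Bag3 count the median was 0.00339 and 0.461 in dim CMs of M25 and M116. In their bright CMs it was 1.13 and 1.32. Each heart thus held more hBAG per Bag3 in its bright than in its dim CMs, and the dim CMs of the hearts differed from each other. The means of bright and dim CMs were 1.35 ± 0.220 and 0.344 ± 0.418 (SD, n = 2), and a paired two-sided exact permutation test gave p = 0.5, the smallest that 2 pairs allow. In M72 the number was 0.524 in CMs labelled bright and 1.22 in those labelled dim. The median over single cells was 0.196 and 1.32. Bag3 itself was at 199.8 and 206 CPM in these classes.

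The endogenous Bag genes differ widely in level. Per kilobase of exon in GENCODE M21, Bag1 had a median of 90.6 CPM over the 8 sums (range 37.6 to 131), Bag3 78.5 CPM (60.8 to 96.3), Bag2 17.6 CPM (1.12 to 29.2), Bag6 10.99 CPM (8.69 to 14.5), Bag5 5.71 CPM (1.17 to 11.9) and Bag4 0.206 CPM (0 to 1.11). The ranges of Bag1 and Bag3 overlap, as do those of Bag2 and Bag6 and of Bag6 and Bag5, so that these neighbours were not separated; Bag4 lay below Bag5 without overlap. The table was not stated to use strand, and 14.8% of the exon bases of Bag4 and 4.28% of those of Bag2 overlap the antisense genes Gm17484 and Gm37905, so that reads of these partners cannot be told apart. For hBAG and BAG-eGFP no length is given, and their level per length cannot be set beside these.

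**Figure D3:**
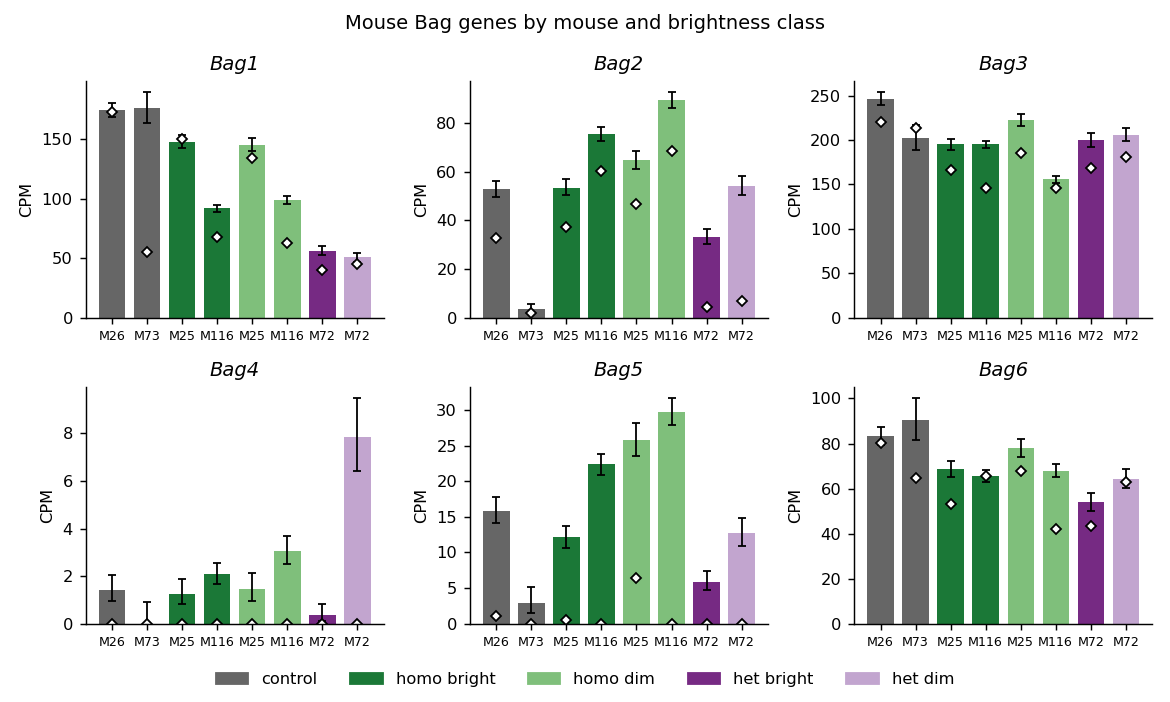
Bars give the level of each mouse Bag gene in CPM in the 8 sums by mouse, coloured by group, with 95% Poisson intervals for counting error only; diamonds give the median over single cells with at least 1000 genes. Bag3 stays between 156 and 247 CPM, Bag2 and Bag5 are low in control M73, and the Bag1 bar of that mouse stands far above its median cell.

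Bag3, the co-chaperone of chaperone-assisted autophagy, was present in nearly every CM. Over cells with at least 1000 genes, 20 of 20 and 8 of 8 control CMs had a Bag3 count, 19 of 20 and 54 of 56 bright homozygous CMs, and every dim homozygous and heterozygous CM. Its level was 247 CPM in control M26 and 203 CPM in control M73. Bright homozygous CMs held 195.3 and 195.1 CPM in mice M25 and M116, and dim homozygous CMs 223 and 156 CPM. Both bright values lay below both controls by a small step, and the dim values lay on either side of the control of M73. In edgeR's quasi-likelihood test, which also applies TMM scaling, Bag3 had a log2 fold change of -0.52 in bright against control CMs (SE 0.29, adjusted p = 0.874) and of -0.53 in dim against control CMs (SE 0.35, adjusted p = 0.975), and did not pass. The scaling carries part of this: with library size in its place the Bag3 values were -0.20 and -0.25, while the median over all genes moved from 0.11 to 0.41 in the bright comparison. Between bright and dim CMs the log2 fold change was 0.01 (SE 0.26, adjusted p = 0.999 from edgeR), from -0.21 in M25 and 0.30 in M116 on normalized values. The spread between the mice was thus larger than the difference between the classes.

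Bag1, the family member that connects Hsp70 with the proteasome, was at 175 and 176 CPM in the control mice M26 and M73. Bright homozygous CMs held 148 CPM in M25 and 92.1 CPM in M116, dim homozygous CMs 146 and 99.0 CPM, and the CMs of M72 labelled bright and dim 56.3 and 50.7 CPM. All 6 transgenic sums lay below both controls, but the sums of the same mouse lay close together whatever their brightness. How many features share this order was not counted. In normalized CPM the Bag1 groups did not overlap in bright or dim against control CMs, as for 39.2% and 38.0% of all features. Bag1 also moved with the plate. In M116 it was at 128 CPM in bright and 137 CPM in dim CMs on the first plate, and at 54.9 and 43.4 CPM on the second. By the median cell, Bag1 lay between 134 and 173 CPM in the 3 classes on the plate of mice M25 and M26, controls included, and between 39.8 and 54.9 CPM in the 3 classes on the plate of mice M73 and M72, controls included. In control M73, at 176 CPM as a sum, 1 of the 9 cells gave 39.3% of the Bag1 counts. Without that cell, left out after its value was seen, it was at 125 CPM, still above its median cell. Further cells of M73 held 419 and 271 CPM of Bag1. Over cells with at least 1000 genes the mean was 170 CPM in M73. In M72 it was 63.8 CPM in CMs labelled bright and 49.5 CPM in those labelled dim. Bag1 had a log2 fold change of -0.86 in bright against control CMs (SE 0.38, adjusted p = 0.810 from edgeR), of -0.81 in dim against control CMs (SE 0.37, adjusted p = 0.868 from edgeR) and between bright and dim CMs of -0.05 (SE 0.37, adjusted p = 0.999 from edgeR). With library size in place of TMM scaling the Bag1 values against control were -0.55 in bright and -0.52 in dim CMs. What a plate and a mouse each contribute cannot be told apart between mice. Within M116 both classes were higher on the first plate, where bright lay below dim CMs, and lower on the second, where bright lay above dim CMs.

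**Figure D4:**
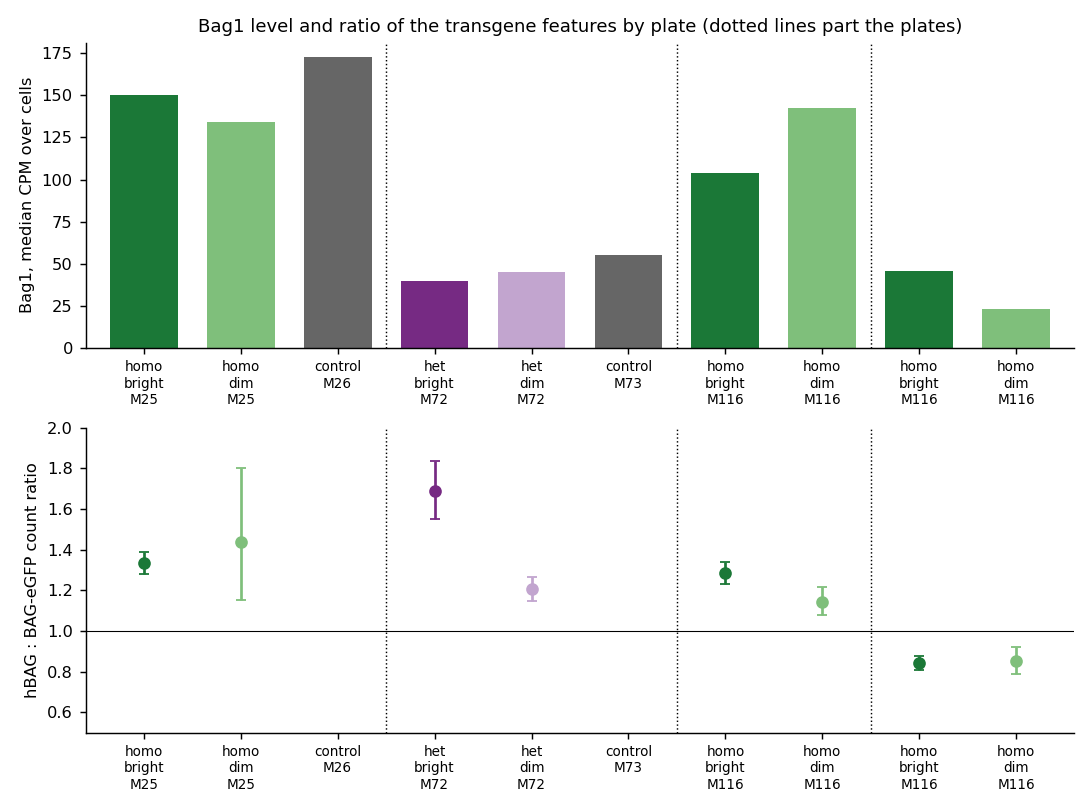
Upper panel: bars give the median Bag1 level in CPM over cells with at least 1000 genes for each class on each of 4 plates, parted by dotted lines. Lower panel: points give hBAG counts per BAG-eGFP count with 95% exact binomial intervals for counting error only, for the transgenic classes; in M116 both measures are higher on its first plate (left of the last dotted line) than on its second (right of it), in bright and dim cells alike.

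Bag6, which works with Get4, Ubl4a and Sgta on membrane proteins in the cytosol, stayed within a narrow range. It was at 83.3 and 90.3 CPM in control mice M26 and M73, at 68.6 and 65.5 CPM in bright CMs of the homozygous mice M25 and M116, and at 77.9 and 68.0 CPM in their dim CMs. In M72 it was at 54.0 CPM in CMs labelled bright and 64.4 CPM in those labelled dim. All 6 transgenic sums lay below both controls, and how many features share this order was not counted. In normalized CPM the Bag6 groups did not overlap in bright or dim against control CMs, as for 39.2% and 38.0% of all features. The log2 fold change was -0.70 in bright against control CMs (SE 0.37, adjusted p = 0.866 from edgeR), -0.55 in dim against control CMs (SE 0.38, adjusted p = 0.979 from edgeR) and between bright and dim CMs -0.15 (SE 0.24, adjusted p = 0.999 from edgeR), so that none passed. The scaling carries part of this too: with library size in place of TMM the Bag6 values against control were -0.37 in bright and -0.25 in dim CMs.

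Bag2, the inhibitor of CHIP, and Bag5, an exchange factor of Hsp70, were both much lower in 1 control mouse than in the other. Bag2 was at 53.0 CPM in control M26 and at 3.42 CPM in control M73, where all 9 cells together held 14 counts. Bright homozygous CMs held 53.4 and 75.4 CPM of Bag2 in mice M25 and M116, dim CMs 64.9 and 89.4 CPM, and CMs of M72 33.1 CPM (labelled bright) and 54.3 CPM (labelled dim). The median CM of M72 held 4.32 CPM and 7.01 CPM of Bag2, so that on the plate of mice M73 and M72 the gene was low in the typical cell of control and transgenic mice alike. For Bag5 the values were 15.9 CPM in M26 and 2.93 CPM in M73, 12.1 and 22.3 CPM in bright CMs, 25.7 and 29.7 CPM in dim CMs, and 5.92 and 12.8 CPM in the CMs of M72 labelled bright and dim. All 12 Bag5 counts of M73 came from 1 cell, and in the CMs of M72 labelled bright 1 cell gave 69.5% of the Bag5 counts. Bag5 was higher in dim than in bright CMs of both homozygous mice, and its groups did not overlap in this comparison, as for 31.1% of all features. Without the cell with most Bag5 counts, left out after its value was seen, the dim CMs of M25 were at 19.0 CPM, below the bright CMs of M116.

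The log2 fold change of Bag2 was 0.93 in bright (SE 1.04, adjusted p = 0.950 from edgeR) and 1.19 in dim (SE 1.01, adjusted p = 0.991 from edgeR) against control CMs. The size of these values depended on the control mouse and on the plate name prefix. Without control M73 the Bag2 values were 0.05 and 0.32, and without control M26 they were 3.83 and 4.14, the latter with an adjusted p of 0.0390 from edgeR. In that fit 5.89% of all features passed, and the 14 Bag2 counts of M73 alone stood for the control. With the plate name prefix as a block the Bag2 values were 1.81 and 2.07. For Bag5 they were 0.58 in bright (SE 1.02, adjusted p = 0.971 from edgeR) and 1.29 in dim CMs (SE 0.91, adjusted p = 0.980 from edgeR). Without M73 the Bag5 values were -0.13 and 0.58, and without M26 they were 2.14 and 2.88, the latter at an adjusted p of 0.0547 in edgeR. In bright against dim CMs Bag2 had -0.29 (SE 0.27) and Bag5 -0.73 (SE 0.42), each at an adjusted p of 0.999 in edgeR. Bag5 was patchy among cells: a Bag5 count was seen in 40.0% to 61.1% of homozygous CMs per class, and its median over cells was at most 6.42 CPM in any class.

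Bag4, known as the silencer of TNFR1, was at the edge of detection. It was at 1.43 CPM in control M26 and had 0 counts in M73, which allows up to 3 counts. Bright CMs held 1.27 and 2.07 CPM in mice M25 and M116, and dim CMs 1.47 and 3.05 CPM. In M72 it was at 0.361 CPM in CMs labelled bright and at 7.83 CPM in those labelled dim, where 1 cell gave 85.8% of the counts. In the dim CMs of M116 1 cell gave 81.0%. With log2 fold changes of 0.86 in bright (SE 1.79) and 1.30 in dim (SE 1.89) against control CMs, and of -0.46 in bright against dim CMs (SE 1.12), a difference in Bag4 was not detectable at this depth (adjusted p = 0.976, 0.999 and 0.999 from edgeR).

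In bright against control CMs, 2 of the 8 members passed an adjusted p of 0.05 in edgeR, and they were the only features of 12203 to do so (0.0164%). They are the transgene features, which the control genotype does not express and which passed the count filter through the transgenic CMs. The genotype thus set the direction of this contrast in advance, here and in dim CMs. hBAG rose by 8.96 on the log2 scale (SE 0.53) and BAG-eGFP by 11.96 (SE 0.66), each at an adjusted p of 0.0123 in edgeR. Without control M26 neither passed (0% of all features did), with an adjusted p of 0.0853 in edgeR. The remaining control, M73, held 2 hBAG counts and 0 of BAG-eGFP, so that no fold change of BAG-eGFP can be given there, and that of hBAG was 8.67 on the log2 scale. As ratios of CPM pooled over both controls and both bright sums, the level was 597 times the control level for hBAG (95% interval 324 to 1245, counting error only) and 5269 times for BAG-eGFP, whose interval of 946 to 208145 rests on the 1 control count. At an unadjusted p under 0.05 the background was 6.55%, and 0 of the 6 mouse Bag genes were there. With the plate name prefix as a block it was 4.29%, and Bag1 was there (log2 fold change -0.91, unadjusted p = 0.0440 from edgeR). In normalized CPM, the scale of all counts of groups that do not overlap, the groups were apart for 5 members, with both transgene features higher and Bag1, Bag3 and Bag6 lower in both bright mice, beside 39.2% of all features; for the mouse Bag genes this is 3 of 6. DESeq2 called 1.40% of the features it tested and the fit with that block 0.0819%, in each case both transgene features and no mouse Bag gene.

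In dim against control CMs, edgeR called 0% of 12195 features. Both transgene features, with log2 fold changes of 6.66 for hBAG (SE 1.33) and 9.87 for BAG-eGFP (SE 1.83) and an adjusted p of 0.735, stood among the 6.22% of features with an unadjusted p under 0.05, and none of the mouse Bag genes did. With the plate name prefix as a block the share was 4.46%, and Bag1 (log2 fold change -0.84, p = 0.0433) and Bag2 (2.07, p = 0.0140) were in it, both unadjusted p from edgeR. Without the dim CMs of M25 the values were 7.54 and 10.82, with adjusted p of 1.82e-04 and 2.24e-06 from edgeR, where 0.0714% of all features passed, and without those of M116 they were 4.31 and 7.19, each at an adjusted p of 0.9997 in edgeR, where 0.0602% passed. In these fits 1 sum stands for the dim group. DESeq2, which called 1.03% of features, and the fit with the plate name prefix as a block, which called 0.0984%, called both transgene features and no mouse Bag gene. In the latter fit hBAG had 5.69 and BAG-eGFP 8.44. The groups did not overlap for 7 members (higher for hBAG, BAG-eGFP, Bag2 and Bag5, lower for Bag1, Bag3 and Bag6), beside 38.0% of all features. Bag3 is apart only after TMM scaling, at 207 and 137 normalized CPM in dim against 261 and 236 in control CMs, while it overlaps in CPM. The comparisons with control share the 2 control mice.

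In bright against dim CMs of the same hearts, edgeR called 0% of 13439 features, and 0% in the paired fit with the mouse as replicate block. The classes were set by fluorescence of the eGFP that the transgene encodes. Their contrast in hBAG and BAG-eGFP is thus not independent of the classing. hBAG had a log2 fold change of 2.26 (SE 0.93) and BAG-eGFP of 2.08 (SE 1.03), with an adjusted p of 0.999 from edgeR, and with the replicate block the values were 2.94 and 2.96. Without the dim CMs of M25 they were 1.42 and 1.20, and without those of M116 they were 4.56 and 4.84, with adjusted p from edgeR of 0.9996 for both in the former and of 0.403 and 0.370 in the latter. The features with an unadjusted p under 0.05 were 4.12% of all and held 0 of the 8 members without the block. With the block they were 3.48% of all and held hBAG (p = 0.0445) and BAG-eGFP (p = 0.0489), both unadjusted p from edgeR. The groups did not overlap for hBAG and BAG-eGFP, higher in bright CMs, and Bag5, lower in bright CMs, beside 31.1% of all features. DESeq2 called 1.02% of features and no member. When no filter on low counts was set, edgeR called 0.992% of 21866 features here, both transgene features among them, with adjusted p of 2.48e-11 for hBAG and 2.73e-09 for BAG-eGFP.

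**Figure D5:**
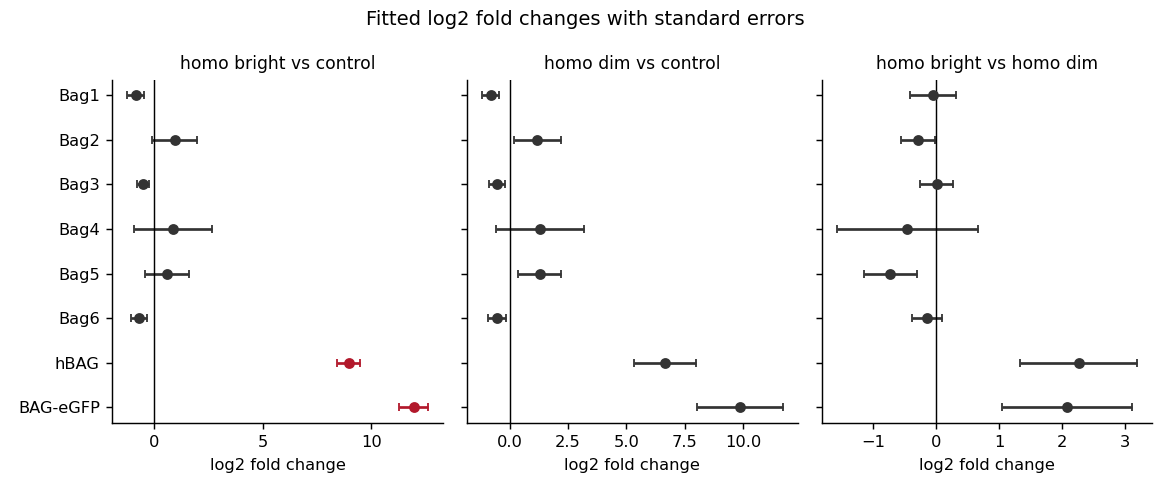
Points give edgeR's log2 fold change of each member and bars 1 standard error, in bright against control, dim against control and bright against dim homozygous cardiomyocytes (2 mice in each group; each panel has its own horizontal scale). Red marks an adjusted p under 0.05, reached in the left panel by hBAG at 8.96 and BAG-eGFP at 11.96, which the control genotype does not express. Bag1, Bag3 and Bag6 sit below 0 in the first 2 panels by less than 1 on the log2 scale.

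The partners of the BAG proteins were followed as a list of 18 genes: the Hsp70 chaperones and partners of BAG3 in selective autophagy (Hspa8, Hspa1a, Hspa1b, Hspb6, Hspb8, Stub1, Synpo2, Flnc, Sqstm1, Map1lc3b and the heat shock factor Hsf1), the partners of BAG6 (Get4, Asna1, Ubl4a, Sgta, Rnf126), and Pink1 and Tnfrsf1a, which are tied to BAG5 and BAG4. Of these, 16 were tested, and Hspa1a and Hspa1b held too few counts. In each of the 3 comparisons edgeR called 0 of 16, 0 lay under an unadjusted p of 0.05, and DESeq2 also called 0. Their median log2 fold change was -0.19 in bright against control, -0.13 in dim against control and -0.02 in bright against dim CMs, beside 0.11, 0.10 and -0.01 over all features. The groups did not overlap for 5 genes (1 higher, 4 lower), 5 genes (3 higher, 2 lower) and 4 genes (1 higher, 3 lower) of the 16, beside 39.2%, 38.0% and 31.1% of all features. The largest values in bright against control CMs were 1.57 for Rnf126, a ubiquitin ligase of the BAG6 pathway (SE 1.06), -0.94 for Hsf1, the heat shock transcription factor (SE 0.83), -0.55 for Synpo2, which helps to form autophagosomes around BAG3 complexes (SE 0.37), and -0.53 for Hspb8, the small heat shock protein bound by BAG3 (SE 0.29), none of which passed.

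Over the 8 sums, the feature most like hBAG by Pearson's r of log2 normalized CPM was BAG-eGFP (r = 0.99). Of the 6328 features compared, Stox2 (0.97), Pomgnt1 (0.95), Pcyox1 (0.95), Tcta (0.95) and Pkp2 (0.94) came next, where 8 points hold 2 controls near 0 and shared plates. Bag6 had r = -0.94, Bag1 -0.78 and Bag3 -0.76 with hBAG, while Bag2 had 0.54 and Bag5 0.27. The 8 sums come from 5 mice, so that they are not 8 independent points. Over cells within sums the median rho with hBAG was -0.05 for Bag6, 0.07 for Bag1, -0.05 for Bag3, -0.06 for Bag2 and 0.03 for Bag5. Within sums, by the median of Spearman's rho over cells, BAG-eGFP again led (0.67), and the highest of the others were Siah2 (0.45), Mlxip (0.39), Snrpb (0.37), Lamp1 (0.34) and Krtcap2 (0.34) among 4919 features. The measures named no gene in common beside BAG-eGFP. For Bag3 the highest r over the sums were those of Ndufs6 (0.98), Gm14539 (0.98), Sf3b5 (0.97), Hspe1 (0.97) and Farsb (0.96). Within sums no feature reached more than 0.31 with Bag3, and the first were Pptc7 (0.31), Insig2 (0.29), Paip2 (0.28), Dcun1d5 (0.26) and Lgals1 (0.26).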

How the data were processed

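STAR was used by the authors to align the reads of a cell to a mouse reference extended by transcript sequences of human BAG3 and eGFP, and its gene counting gave the deposited raw counts, without molecular identifiers. The genome build, annotation and strand setting are not given in the sources used here, so that no gene positions are printed; 55146 of 55538 feature names occur in GENCODE M21. From these counts, sums per mouse and brightness class were made and tested in edgeR 4.0.16 (R 4.3.3) with filterByExpr, TMM, glmQLFit, glmQLFTest and Benjamini-Hochberg adjustment over all features tested, at a threshold of 0.05 and with 2 mice per group. The methods of the study test over cells instead. The edgeR steps were tested on simulated data. CPM are counts scaled by the total of a sum or cell; normalized CPM include the TMM factor.

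The bright and the dim sum of M25, and likewise of M116, are from 1 animal and thus paired by the design; over 6328 features the differences between these mice in bright and dim CMs correlated with Pearson's r = 0.11 and Spearman's rho = 0.21. The main fit has no replicate block, so that the bright against dim values are unpaired unless the block is named; the count ratios were tested in pairs. Named genes were the 8 members in every comparison, and of the partner list those past the threshold and the 4 with the largest absolute log2 fold change in bright against control CMs; for likeness, the 5 highest features with a mean of at least 10 CPM and, over cells, a count in at least 50% of them. A total of 1 gene of the partner list is not reported here, and the list's counts and medians were made without it. The members and lists were chosen with earlier results of these data known. Alternatives were DESeq2 1.42.0, library size, no filter, cells with at least 1000 genes, all groups in 1 fit, a block for the prefix of the plate names (mice M25 and M26 against the others) or a replicate block, thinning to 100000 counts per cell, medians over cells, and each sum left out. Values by plate and without the top Bag1 or Bag5 cell were added after the data were seen. Intervals are exact at 95% and cover counting error only. Whether the samples of a group were handled apart beyond coming from different mice is not given in the sources used here.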

Additional observations from a re-analysis of the deposited data

Results flagged for a closer look

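The bright to dim contrast of both transgene features went one way in the homozygous mice and the opposite way in the heterozygous mouse. In normalized CPM, the log2 ratio of bright to dim CMs for hBAG was 4.76 (M25), 1.20 (M116) and -1.14 (M72). For BAG-eGFP it was 4.87 (M25), 1.17 (M116) and -1.62 (M72). With 1 heterozygous mouse the difference was not tested. It rests on the brightness labels of M72 as given, and whether they are right was not tested.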

How the results depend on the processing

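Of 240 fitted log2 fold changes of members under an alternative, 220 kept their direction and their side of the threshold. DESeq2 called 177 features in bright against control, 128 in dim against control and 136 in bright against dim CMs; without a filter on low counts these were 163, 58 and 217. With all groups in 1 fit 5 and 1 passed in the comparisons with control, and with the plate name prefix as block 10 and 12. The replicate block in bright against dim CMs left the count at 0 and moved hBAG to 2.94 and BAG-eGFP to 2.96; it changed no call at the adjusted threshold. When each sum was left out in turn, 0 to 41, 3 to 827 and 0 to 74 features passed; the extremes came without control M26 (0 and 827), the bright CMs of M116 (41 and 74) and control M73 (3), and the lone sum of a group is assumed there to vary like the others. Without control M26, hBAG and BAG-eGFP in bright against control CMs had an adjusted p of 0.0853 in edgeR.

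Directions of mouse Bag genes turned only among these omissions: in bright against control CMs Bag4 ranged from -0.014 to 8.14 (the upper end against control M73 alone, where it has 0 counts, is no estimate of a fold) and Bag5 from -0.13 to 2.14, both below 0 without control M73, and in bright against dim CMs Bag1 ranged from -0.50 to 0.30, Bag3 from -0.25 to 0.34 and Bag4 from -0.86 to 0.12.

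As medians over cells, hBAG per Bag3 count was 0 in control CMs, 0.196 in CMs of M72 labelled bright and 1.32 in those labelled dim, and hBAG per BAG-eGFP count 0.953 in bright homozygous CMs and 1.48 in CMs of M72 labelled bright. Among cells with at least 1000 genes the share of cells with a count was 100% for Bag1, Bag3 and Bag6 in both controls, for Bag2 in control M26, for Bag1 and Bag3 in dim CMs of M116, for BAG-eGFP in bright CMs of M25 and M116, for Bag3 in CMs of M72 labelled bright, and for both transgene features in those labelled dim. In that set it was 95.8% for Bag1 in CMs of M72 labelled bright and 98.2% for hBAG in bright CMs of M116. With cells thinned to 100000 counts it was 99.9% for Bag1, 99.997% for Bag3 and 3.56% for hBAG in control M26, 99.7% for Bag3 in control M73, 98.2% for Bag3, 11.2% for Bag4 and 99.99% for BAG-eGFP in bright CMs of M116, and 98.9% for Bag3 in CMs of M72 labelled bright. The causes of these changes were not tested. With 9 cells and 2.93 to 3.42 CPM of Bag5 and Bag2, control M73 limits what can be said of the lower Bag genes.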
